A study of Mus musculus with 2 samples.

Results

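The cells described here were Cxcl12-high mesenchymal cells of uninjured mouse periosteum, the fibrous layer that covers bone. They were selected on their own measured EGFP, Cxcl12, Ly6a, Ly6c1 and C1q levels from a single-cell RNA sequencing library of the uninjured group, so those levels describe the choice and support nothing. A barcode was kept with at least 500 genes, at least 1000 unique molecular identifiers (UMIs, each standing for 1 captured transcript) and at most 10% mitochondrial UMIs. A lineage cell had at least 3 EGFP UMIs, at least 5 EGFP UMIs per 10000, and fewer than 3 UMIs per 10000 of the macrophage genes C1qa, C1qb and C1qc together. A Cxcl12-high cell was a lineage cell with at least 5 Cxcl12 UMIs per 10000 and fewer than 15 Ly6a and Ly6c1 UMIs per 10000. The rule found 148 cells among 2225 lineage cells of the library, of 18894 barcodes kept in the series. That was 6.65% of the lineage cells (95% Clopper-Pearson interval 5.65 to 7.77). They were set against the 684 lineage cells of the same library without a Cxcl12 UMI, called Cxcl12-zero cells.

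The series held 1 library from Prx1Cre;mTmG mice at day 3 after tibial fracture and 1 from uninjured Prx1Cre;mTmG mice, both made with a 10x 3' version 2 kit from all live cells, with the same number of cells loaded for each per the labels. In these mice a Cre driven by a Prrx1 enhancer, active in limb bud mesenchyme, switches a reporter permanently to EGFP in those cells and their descendants, so EGFP records descent and not present Prrx1 activity. The number, age and sex of the mice are not stated in the labels, nor whether animals were pooled. Per the labels the cells grew out of periosteal explants in αMEM with fetal bovine serum and the growth factor bFGF at 33 °C until nearly confluent, whereas the design text speaks of cells that were not expanded, and which of these applies is not known.

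Cxcl12 encodes a secreted chemokine that acts through the receptor Cxcr4, while Ackr3 binds and clears it. In mouse bone marrow, stromal cells with abundant Cxcl12 surround the vessels, hold blood stem cells and lymphoid progenitors in place and are known for Kitl, Ebf1, Ebf3, Foxc1 and Lepr. Cxcl12 is also made by periosteal and other connective tissue fibroblasts. The Ly6a product Sca-1 marks a further fibroblast and progenitor state. The rule put its Ly6 limit on the Cxcl12-high cells and not on the cells they were set against.

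With 1 library a group there is no replicate. Cells of 1 library are not replicates of a condition, so no test was made, and every interval given covers counting error only. The uninjured library had 94034112 UMIs over 4573 barcodes, of which 4431 were kept. The day 3 library had 227191961 UMIs over 16332 barcodes, of which 14463 were kept. The libraries shared 3 barcodes, none of them a Cxcl12-high cell. Levels are UMIs summed over a class and given per 1000000 of the class's UMIs (CPM), with 2843563 UMIs in Cxcl12-high cells and 18302905 in Cxcl12-zero cells. The median cell had 18082 UMIs and 3866 genes in the Cxcl12-high class, against 25870 UMIs and 4607 genes in the Cxcl12-zero class.

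Within the 148 cells Cxcl12 itself varied several-fold. A cell had 5 to 68 Cxcl12 UMIs with a median of 16, and 130 cells had at least 10. Per 10000 UMIs the lowest cell had 5.05, the quartiles were 6.02, 8.23 and 12.7, and the highest cell had 34.3. The cells thus spread upward from the threshold without a gap, with 34 of them between 5 and 6 per 10000 and 39 Ly6-low lineage cells just outside it, between 4 and 5. At the Ly6 limit, 30 of the cells had 10 to 15 Ly6a and Ly6c1 UMIs per 10000, and 19 Cxcl12-high lineage cells had 15 to 20. The 148 cells were not lower in these genes than the typical Cxcl12-zero cell. Their median was 6.73 Ly6a and Ly6c1 UMIs per 10000, against 3.83 in the 684 Cxcl12-zero cells, of which 580 lay below the limit. As sums, Ly6a had 517 CPM in Cxcl12-high and 570 CPM in Cxcl12-zero cells, and Ly6c1 151 and 120 CPM. The class held 35.0% of the Cxcl12 UMIs of all lineage cells with 4.83% of their UMIs, and its 15 cells with most Cxcl12 UMIs held 23.6% of the class's own. As sums, Cxcl12 stood at 1010 CPM in the class, at 967 CPM in the 60 Cxcl12-high cells above the Ly6 limit, at 116 CPM in the 1333 Cxcl12-low cells and at 42.9 CPM in 1275 macrophage-like barcodes with C1q transcripts and little EGFP. The gene lies on chromosome 6 of mm10 at 117168535 to 117181367, plus strand.

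**Figure D1:**
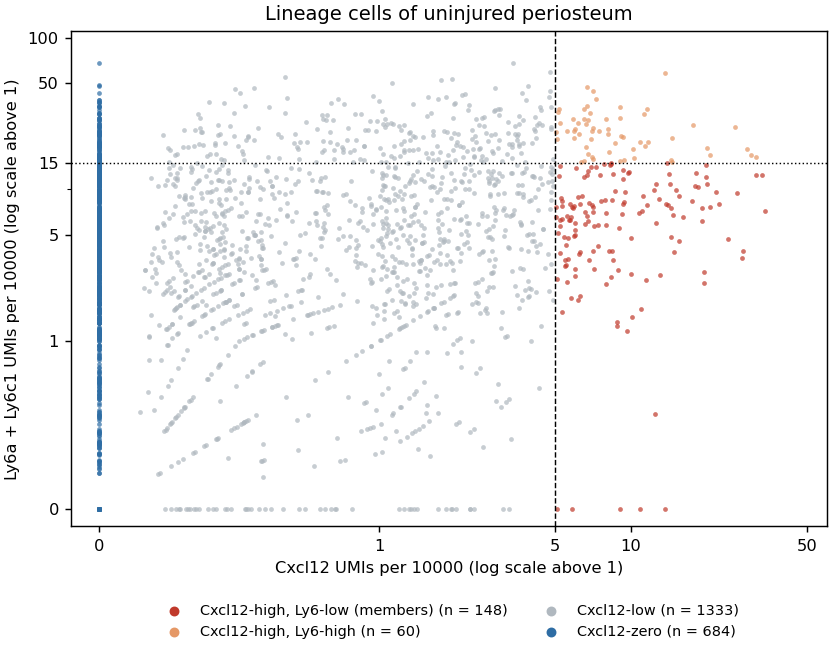
Each point is 1 of the 2225 lineage cells of the uninjured library, with Cxcl12 UMIs per 10000 on the horizontal axis and Ly6a plus Ly6c1 UMIs per 10000 on the vertical axis (both linear up to 1 and logarithmic above). The dashed and dotted lines are the limits of 5 and 15, and the 148 Cxcl12-high cells to the lower right run on without a gap into the Cxcl12-low cells.

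The label as lineage cells was checked on genes the rule did not use. Prrx1, the limb mesenchyme transcription factor whose enhancer drives the Cre, had 302 CPM in Cxcl12-high cells and 398 CPM in Cxcl12-zero cells, and 94.6% and 93.3% of the cells of these classes had a UMI of it. Thinned to 3000 UMIs a cell, 62.2% of Cxcl12-high cells, 62.9% of Cxcl12-zero cells and 5.53% of the C1q barcodes had a Prrx1 UMI. Col1a1, the main bone and fibroblast collagen, had 2071 CPM in Cxcl12-high cells and 1382 CPM in Cxcl12-zero cells, a ratio of 1.498 that was 0.958 among cells with fewer than 3 mitotic UMIs. EGFP, used by the rule, stood at 1862 and 2763 CPM in the same order, and 1 Cxcl12-high cell had a UMI of the unswitched reporter tdTomato. Both classes therefore carried the mesenchymal genes named here, at levels within 1.5-fold of each other.

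At day 3 after fracture hardly any cell met the rule. Of 3697 lineage cells 5 did, or 0.135% (0.0439 to 0.315), each on 1 Cxcl12 UMI in a barcode of 1019 to 1942 UMIs, against 6.65% in the uninjured library. Over all lineage cells Cxcl12 stood at 11.4 CPM at day 3 and at 139 CPM in the uninjured library. The difference was not confined to lineage cells: macrophage-like barcodes with C1q transcripts and little EGFP had 0.729 CPM at day 3 and 42.9 CPM uninjured. The uninjured level lay in a minority of these barcodes, whose upper quartile was 0 Cxcl12 UMIs and whose maximum was 27. Cells without a Cxcl12 UMI made up 79.1% of the lineage cells at day 3 and 30.7% of those uninjured, although the day 3 lineage cells were deeper, with a median of 32632 UMIs against 24524. In deeper day 3 cells Cxcl12 stayed under the threshold, and the highest of the 764 Cxcl12-low cells had 3.86 per 10000. Each condition is 1 library, so injury and library cannot be told apart, and fewer such cells cannot be told apart from less Cxcl12 in each.

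Cxcl12-high cells had higher levels of many matrix, WNT, cytokine and niche factor genes than Cxcl12-zero cells, and lower levels, by 2-fold or more, of 17 of 22 measured mitotic genes and of 8 of 18 contractile genes, 2 of which were higher by as much. Of 2759 genes with at least 50 CPM in the higher class, 109 were higher by 2-fold or more in Cxcl12-high cells, which is 3.95%, and 90 were lower by as much, which is 3.26%. Among cells of 10000 to 40000 UMIs the numbers were 87 and 64. The median gene had a log2 ratio of -0.11. For all 109 higher genes and for 87 of the 90 lower genes the Cxcl12-low cells lay between the other two classes. These genes were picked for a gap between those classes, which favours a middle value, and the share over all 2759 genes was not counted. Because the classes were cut from these same cells, the ratios describe them and carry no test.

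**Figure D2:**
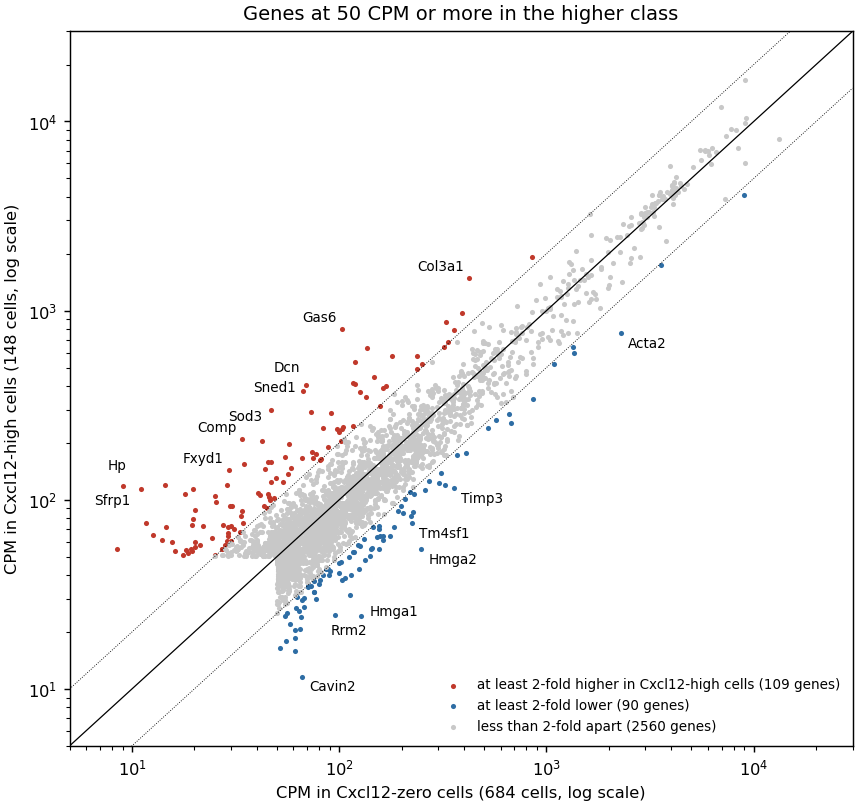
Each point is 1 of 2759 genes with at least 50 CPM in the higher class, with its CPM in the 684 Cxcl12-zero cells on the horizontal axis and its CPM in the 148 Cxcl12-high cells on the vertical axis, both logarithmic. The solid line marks equal levels and the dotted lines a 2-fold difference; 109 genes lie above and 90 below.

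The highest ratio was that of Hp, the haemoglobin-binding plasma protein haptoglobin, with 118 CPM in Cxcl12-high cells and 9.07 CPM in Cxcl12-zero cells, a ratio of 12.99 (95% interval 10.8 to 15.7). Sfrp1, a secreted WNT antagonist, had 115 and 11.1 CPM in the same order, a ratio of 10.3 (8.65 to 12.4). Islr, a secreted immunoglobulin-domain protein of mesenchymal stroma, had 119 and 14.4 CPM, a ratio of 8.30. Thinned to 3000 UMIs, 25% of Cxcl12-high cells, 2.5% of Cxcl12-zero cells and 1.63% of C1q barcodes had an Hp UMI. For Sfrp1 these shares were 17.6%, 3.68% and 2.44%. At such levels a cell of 3000 UMIs often has no UMI of an evenly expressed gene. The shares therefore do not show how the class varied within itself. Gas6, the ligand of the Axl, Tyro3 and Mertk receptors, had 798 CPM in Cxcl12-high cells and 103 CPM in Cxcl12-zero cells, a ratio of 7.76 (7.30 to 8.26). Its median Cxcl12-high cell had 7.30 UMIs per 10000 with quartiles of 2.68 and 11.6, against a median of 0.306 and quartiles of 0 and 1.24 in Cxcl12-zero cells, so the interquartile ranges of the classes did not overlap. Gas6 was not restricted to lineage cells, since the C1q barcodes had 342 CPM of it.

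Extracellular and membrane proteins filled most of the next places. The antioxidant enzyme Sod3, which sits in the extracellular matrix, had 299 CPM in Cxcl12-high and 46.9 CPM in Cxcl12-zero cells, a ratio of 6.38. Dcn, the collagen-binding proteoglycan decorin, had 407 and 69.1 CPM, a ratio of 5.89, and its relative Lum, lumican, 107 and 18.0 CPM, a ratio of 5.95. The matrix proteins Comp and Thbs4, a pair of thrombospondins of tendon and cartilage, had ratios of 6.17 and 5.80, and the large adhesive proteins Sned1 and Svep1 ratios of 5.62 and 4.92. The membrane proteolipid Gpm6b had a ratio of 6.47 and the sodium pump regulator Fxyd1 4.88. Acp5, the osteoclast enzyme tartrate-resistant acid phosphatase, came at 5.16, but 5 of the 148 cells held 89.7% of its UMIs. A few cells thus carried Acp5, while 5 cells held 12.7% of the Sod3 and 13.9% of the Gas6 UMIs.

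Cells with fewer than 3 mitotic UMIs, counted over 15 of the 22 mitotic and replication genes listed, are called non-cycling here. Among these 95 Cxcl12-high and 197 Cxcl12-zero cells all 15 leading genes stayed past 2-fold. Most had smaller ratios, such as 7.45 for Hp, 4.09 for Gas6 and 2.34 for Lum. Without the cells that had 10 or more Acp5 UMIs, the Acp5 ratio was 1.27. Of 114 genes followed through the alternatives, 56 had a ratio more than 1.5 times apart among non-cycling cells, 9 turned in direction, 18 lost and 7 gained a 2-fold difference.

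**Figure D3:**
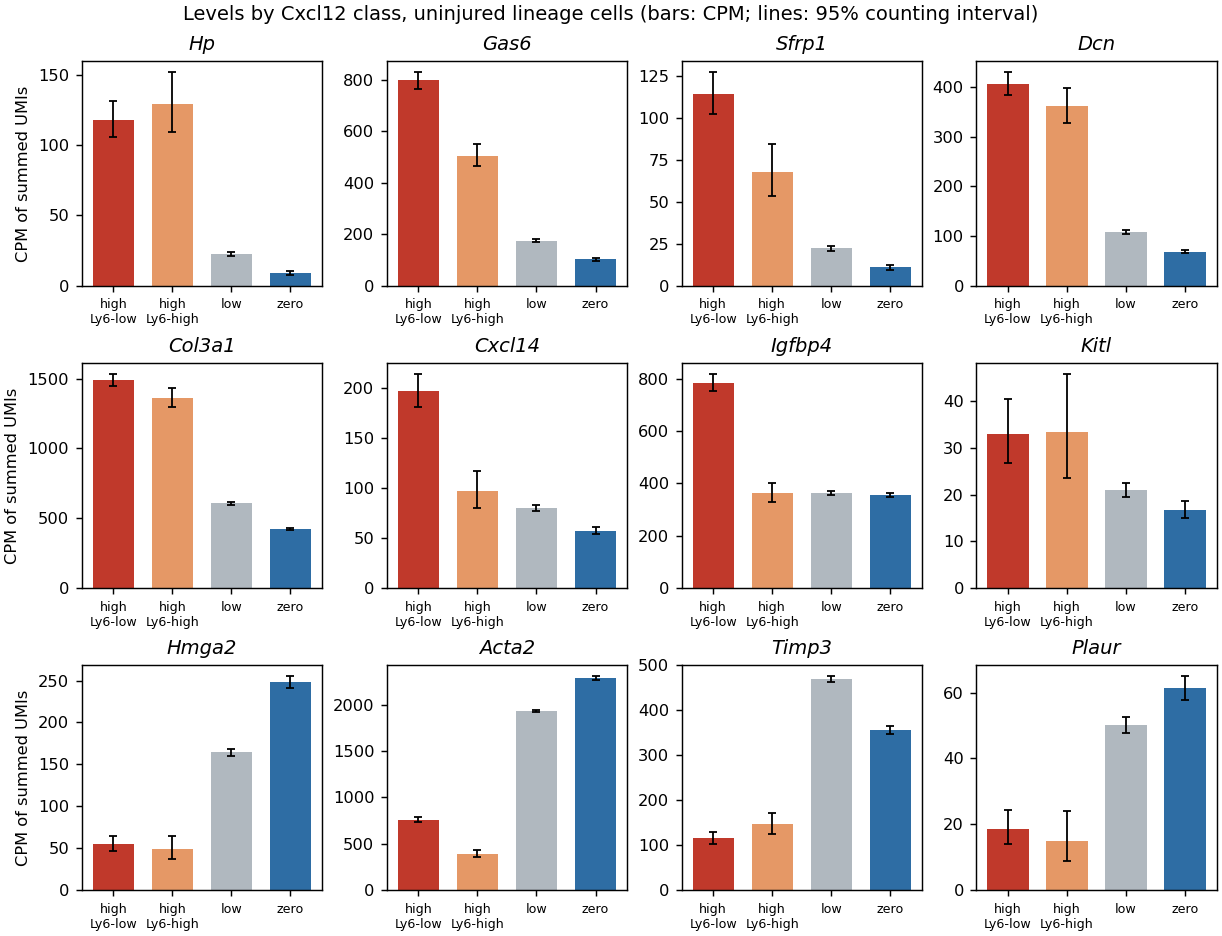
Bars give the CPM of summed UMIs in Cxcl12-high cells below and above the Ly6 limit, in Cxcl12-low cells and in Cxcl12-zero cells of the uninjured library, from left to right, with 95% Poisson intervals as lines that cover counting error only. Hp, Gas6, Dcn and Col3a1 are lowest and Hmga2, Acta2 and Plaur highest in the Cxcl12-zero cells, Timp3 is highest in the Cxcl12-low cells, and Igfbp4 is highest in the Ly6-low Cxcl12-high cells.

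The chemokine's own circuit was present in part. Ackr3, the scavenger receptor, had 19.7 CPM in Cxcl12-high cells and 7.10 CPM in Cxcl12-zero cells, a ratio of 2.77 (1.99 to 3.82). Cxcr4, the signalling receptor, had no UMI in the 148 cells and 2 UMIs in the 684. Of the proteases that cut Cxcl12, Mmp2 had 251 and 128 CPM in the same order, a ratio of 1.97, whereas Dpp4, Ctsg and Elane had no UMI in Cxcl12-high cells. Mmp9, a gelatinase of osteoclasts and neutrophils, had a ratio of 4.26 with 88.7% of its UMIs in 5 cells, and 0.804 without the cells of 10 or more Acp5 UMIs. Hmgb1, a partner of Cxcl12 in signalling, had 791 and 1068 CPM, a ratio of 0.74 that was 1.01 among non-cycling cells.

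Many genes known from Cxcl12-abundant reticular cells and niche support were higher, but not Lepr, the best known marker of those cells. Gene lists were read at 10 CPM, where 393 of 7676 genes (5.12%) passed the 2-fold limit on the higher side and 274 (3.57%) on the lower, with a median log2 ratio of -0.0033. A gene that passed this minimum only through its higher class had to differ, so list counts describe the genes measured and not every gene listed. Of 23 niche genes 18 were measured, 9 were higher and 0 lower, with a median log2 ratio of 1.05. The list was chosen with earlier results of these data known, so the count is a description. Beside Hp and Gas6, the vessel-stabilising factor Angpt1 had 19.3 CPM in Cxcl12-high cells and 3.88 CPM in Cxcl12-zero cells, a ratio of 4.99. Cxcl14, a chemokine of skin and stroma, had 197 and 56.9 CPM, a ratio of 3.46. The transcription factor Runx1 had 159 and 46.9 CPM, a ratio of 3.40, and Ebf1, needed for reticular stroma, 390 and 162 CPM, a ratio of 2.40, with Ebf3 at 2.17. Ebf3 fell under the limit in several alternatives, with 1.99 without the highest doublet scores, 1.94 without the cells of 10 or more Acp5 UMIs, 1.92 without a Ly6 limit and 1.59 among non-cycling cells.

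Kitl, the stem cell factor that maintains blood stem cells, was just under the limit, with 33.1 CPM in Cxcl12-high and 16.7 CPM in Cxcl12-zero cells, a ratio of 1.98 (1.55 to 2.499), and between 1.56 and 2.58 over the alternatives. Vcam1, an adhesion molecule for blood cells, had 67.9 and 34.4 CPM, a ratio of 1.97, and Foxc1 a ratio of 1.56. Csf1, the macrophage growth factor, had 179 and 239 CPM, a ratio of 0.75 that was 1.14 among non-cycling cells, and Grem1, a BMP antagonist, had 0.73, with 0.458 among them. Lepr, the leptin receptor that marks most marrow stromal cells, had 4 UMIs in 4 of the 148 cells, or 1.41 CPM, against 3.28 CPM in Cxcl12-zero cells, so it was close to undetected in both. Adipoq, the adipokine of adipogenic marrow stroma, had 1 UMI in Cxcl12-high cells, and Il7, the lymphoid growth factor, 8 UMIs. Igfbp4, a binding protein that limits insulin-like growth factors, had 786 and 356 CPM, a ratio of 2.21, which was 1.17 among non-cycling cells. The fat enzyme Lpl had a ratio of 2.46 (5.47 among non-cycling cells) with 46.5% of its UMIs in 5 cells, and 528 CPM in the C1q barcodes.

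Most of the WNT genes measured were higher. Of 28 WNT genes listed 14 were measured, 9 were higher and 0 lower, with a median log2 ratio of 1.22. Genes such as Rspo3, which passed 10 CPM only in Cxcl12-high cells, had to differ, so the count does not cover the genes left unmeasured. They took in antagonists (Sfrp1, Sfrp2, Sfrp4, Notum), the enhancers of receptor activity Rspo2 and Rspo3, the ligand Wnt16 and the receptors Lrp5 and Lrp6. Rspo3 had 31.7 CPM in Cxcl12-high cells and 3.11 CPM in Cxcl12-zero cells, a ratio of 10.2 (7.21 to 14.4), which was 5.17 among non-cycling cells. Inhibitors and enhancers of WNT signalling were thus higher together. In the BMP list 1 of 15 genes was higher, the antagonist Chrdl1 at 17.2 and 1.53 CPM, a ratio of 11.3 (4.89 among non-cycling cells), while the BMP target Id1 had a ratio of 0.53. In the TGF-beta and activin list 2 of 19 genes were higher, with the co-receptor Tgfbr3 at a ratio of 3.1, and 1 was lower, the activin subunit Inhba at 55.6 and 144 CPM, a ratio of 0.39 that was 0.595 among non-cycling cells. Hes1, a target of Notch, was the 1 lower gene of 4 in its list, at 4.92 and 18.2 CPM.

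Growth factor and inflammatory genes were higher in a selective way. Of 12 genes of the insulin-like growth factor pathway 4 were higher and 0 lower, among them Pappa, the protease that cuts Igfbp4, at 47.8 CPM in Cxcl12-high and 14.4 CPM in Cxcl12-zero cells. Of 17 PDGF, FGF and angiogenic genes 6 were higher, with Angpt1 and the heparin-binding growth factor Mdk (ratio 4.21) among them, and Pdgfc was lower. Among cytokines and their mediators 8 of 12 were higher and 2 lower, with a median log2 ratio of 1.62. The interleukin-1 receptor Il1r1 had 79.5 and 19.7 CPM, a ratio of 4.04, and the signalling chain Il6st, shared by interleukin-6 family receptors, 289 and 91.3 CPM, a ratio of 3.17. The acute phase gene Saa3 had a ratio of 6.44 on 50 UMIs in each class, with 72.0% of its UMIs in 5 cells. Its ratio was 53.7 among non-cycling cells, 3.26 with equal weight per cell and 2.625 in thinned cells. Tnfrsf11b, the decoy receptor osteoprotegerin that restrains osteoclasts, was lower with 3.87 and 12.9 CPM, a ratio of 0.30 (0.665 at 10 Cxcl12 UMIs per 10000), while its ligand Tnfsf11 was among the higher genes.

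Of 7 complement genes measured 5 were higher and 0 lower, among them C4b, C1s1, C1ra and Serping1, with a median log2 ratio of 1.94. C1s1, a protease that starts the classical pathway, had 35.2 CPM in Cxcl12-high and 7.32 CPM in Cxcl12-zero cells, a ratio of 4.80 (2.77 among non-cycling cells), and C4b 14.4 and 1.69 CPM, although reads of C4b may be shared with its near-identical neighbour C4a. Components and inhibitors of complement were thus both among them. Among chemokines 1 of 5 was higher, the neutrophil attractant Cxcl5, with 576 and 180 CPM, a ratio of 3.21. The monocyte attractants Ccl2 and Ccl7 had ratios of 1.36 and 1.51, which were 4.33 and 2.65 among non-cycling cells, past the 2-fold limit. Besides Sod3, the metal-binding proteins Mt1 and Mt2 were the higher genes of the stress list, with Mt2 at 633 and 136 CPM, a ratio of 4.64, and the quinone reductase Nqo1 was its lower gene at 64.7 and 163 CPM.

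Part of the collagen and other matrix genes was higher. Of 15 collagen genes 7 were higher and 0 lower. Col3a1, the fibrillar collagen of loose connective tissue, had 1489 CPM in Cxcl12-high cells and 423 CPM in Cxcl12-zero cells, a ratio of 3.52 (3.39 to 3.66), and Col14a1, which decorates collagen fibrils, 29.5 and 3.06 CPM, a ratio of 9.66. The Col3a1 quartiles were 7.15, 12.3 and 19.6 UMIs per 10000 in Cxcl12-high cells and 0.92, 2.70 and 5.81 in Cxcl12-zero cells, again without overlap of the interquartile ranges. Among non-cycling cells Col3a1 had a ratio of 2.10 and Col14a1 4.70. Col8a1, a short-chain collagen, had a ratio of 0.65. Of 7 small leucine-rich proteoglycans 3 were higher, Lum, Dcn and Prelp, while Ogn had 1.17 and Aspn 0.64, which were 0.627 and 0.29 among non-cycling cells. Of 19 wound matrix genes 6 were higher and 2 lower, of 12 basement membrane genes 4 and 0, and of 18 collagen folding and crosslinking genes 4 and 0, with the crosslinking enzyme Lox at 973 and 391 CPM, a ratio of 2.49.

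Of 12 genes that mark fibroblasts across organs 7 were higher and 2 lower, with a median log2 ratio of 1.23. Dpt, the matrix protein dermatopontin, had 30.2 CPM in Cxcl12-high and 3.28 CPM in Cxcl12-zero cells, a ratio of 9.23 (4.38 among non-cycling cells), and the microfibril protein Mfap4 a ratio of 6.83. The lower pair was Anxa3, at 81.6 and 221 CPM, and Penk, at 3.87 and 11.5 CPM. The Anxa3 ratio of 0.369 was 0.647 among non-cycling cells, and the Penk ratio of 0.336 was 0.619 at 3 Cxcl12 UMIs per 10000. In the list of 13 skeletal progenitor genes 3 were higher, namely Pdgfra and the periosteal cell genes Postn, at 75.3 and 34.4 CPM, and Ctsk, at 109 and 40.4 CPM, and Nes was lower. Ctsk is also an osteoclast gene, and without the cells of 10 or more Acp5 UMIs its ratio was 1.46. The Postn ratio of 2.19 was 1.16 among non-cycling cells, 1.83 without a Ly6 limit and 1.85 against all other lineage cells. The stromal surface protein Pdpn had a ratio of 0.606.

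No differentiation programme was higher as a whole. Of 10 osteogenic genes 0 were higher and 3 lower, Ibsp, Tnn and Bglap2, the last at 3.87 CPM in Cxcl12-high cells and 10.9 CPM in Cxcl12-zero cells, with reads that may be shared with Bglap. Spp1, the bone and macrophage phosphoprotein osteopontin, had 3239 and 1624 CPM, a ratio of 1.995, and 3347 CPM in the C1q barcodes. Of 3 chondrogenic genes none passed the limit, and the cartilage factor Sox9 had a ratio of 1.77. Of 11 tenogenic genes 3 were higher, Col14a1, Comp and Thbs4, all of them matrix proteins, while the tendon transcription factor Scx had 15.8 and 28.9 CPM, a ratio of 0.55 that was 0.258 among non-cycling cells. Of 12 adipogenic genes 5 were higher, among them the transcription factor Cebpa at 25.7 and 7.16 CPM, a ratio of 3.59, and 1 was lower, the fatty acid carrier Fabp5 at 120 and 324 CPM.

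Cavin2, a coat protein of caveolae, had the lowest ratio, with 11.6 CPM in Cxcl12-high cells and 65.8 CPM in Cxcl12-zero cells, 0.18 (0.12 to 0.25). The chromatin proteins Hmga1 and Hmga2, which are high in embryonic and growing cells, had 24.3 and 127 CPM, a ratio of 0.19, and 54.9 and 248 CPM, a ratio of 0.22. Hmga1 has pseudogene copies that may share its reads. Thinned to 3000 UMIs, 10.1% of Cxcl12-high cells, 37.2% of Cxcl12-zero cells and 4.96% of the C1q barcodes had an Hmga2 UMI. Plaur, the urokinase receptor, had a ratio of 0.30, the membrane protein Tm4sf1 0.33, the GTPase Rras2 0.33 and the apoptosis regulator Bok 0.35. Timp3, a matrix-bound inhibitor of metalloproteinases, had 115 and 357 CPM, a ratio of 0.32, and its highest level was that of the Cxcl12-low cells with 470 CPM.

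Of 18 contractile and myofibroblast genes 8 were lower and 2 higher, with a median log2 ratio of -0.89. Acta2, the smooth muscle actin of myofibroblasts and pericytes, had 761 CPM in Cxcl12-high cells and 2292 CPM in Cxcl12-zero cells, a ratio of 0.33 (0.32 to 0.35). Its median was 2.37 UMIs per 10000 in Cxcl12-high cells with quartiles of 1.00 and 5.53, against a median of 16.2 with quartiles of 6.33 and 32.0 in Cxcl12-zero cells. The interquartile ranges did not overlap, yet 5 Cxcl12-high cells held 37.99% of the class's Acta2 UMIs. Cnn1, Cnn2, Tpm1, Myl9, Tagln, Actg2 and Lmod1 were the other lower genes. The myosin kinase Mylk and the collagen receptor subunit Itga11 were the higher ones, with ratios of 2.499 and 2.64, which were 1.51 and 1.48 among non-cycling cells.

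All 22 mitotic and replication genes listed were measured, and 17 were lower and 0 higher, with a median log2 ratio of -1.22. Rrm2, a subunit of the enzyme that makes deoxynucleotides, had 24.6 CPM in Cxcl12-high cells and 95.01 CPM in Cxcl12-zero cells, a ratio of 0.26, and Cdc20, an activator of the anaphase-promoting complex, 31.3 and 112 CPM, a ratio of 0.28. Ccna2, Ccnb1, Tpx2 and Hmgb3 had ratios between 0.258 and 0.334. Of the genes named here, Cdc20, Ccna2 and Hmgb3 were among the 15 lowest ratios but not on the list. Mitotic UMIs of a cell were counted over 15 of the 22 listed genes. Cells with at least 3 mitotic UMIs made up 35.8% of Cxcl12-high cells, 53 of 148, and 71.2% of Cxcl12-zero cells, 487 of 684. A smaller share of Cxcl12-high cells thus carried mitotic transcripts, and they were also the shallower class, whose part in this share was not tested. Without those cells 36 genes were lower and 82 higher. Of the 15 lowest genes 8 stayed at least 2-fold lower, among them Cavin2 at 0.366, Hmga1 at 0.16, Hmga2 at 0.277 and Acta2 at 0.368. The mitotic list then had a median log2 ratio of -0.045, which is largely fixed by leaving cells out on genes of that list. The choice also bears on the mitotic genes among the 15 lowest.

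Several groups showed little difference. None of 8 hindlimb position genes, 17 hypoxia and glycolysis genes and 16 cholesterol and fatty acid synthesis genes passed the 2-fold limit in either direction. The hindlimb factors Pitx1 and Hoxc10 had ratios of 0.75 and 0.73, and the glycolytic enzyme Ldha 0.60. Of 11 AP-1 and immediate early genes 1 was lower, Maff, and of 22 skeletal and fibroblast transcription factors 3 were higher, Meox2, Ebf1 and Ebf3, and 1 lower, Etv4. Gas1, a membrane protein of arrested fibroblasts that binds hedgehog proteins, was the 1 higher gene of 15 linked to growth arrest, with 534 CPM in Cxcl12-high and 120 CPM in Cxcl12-zero cells, a ratio of 4.47 (2.88 among non-cycling cells).

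**Figure D4:**
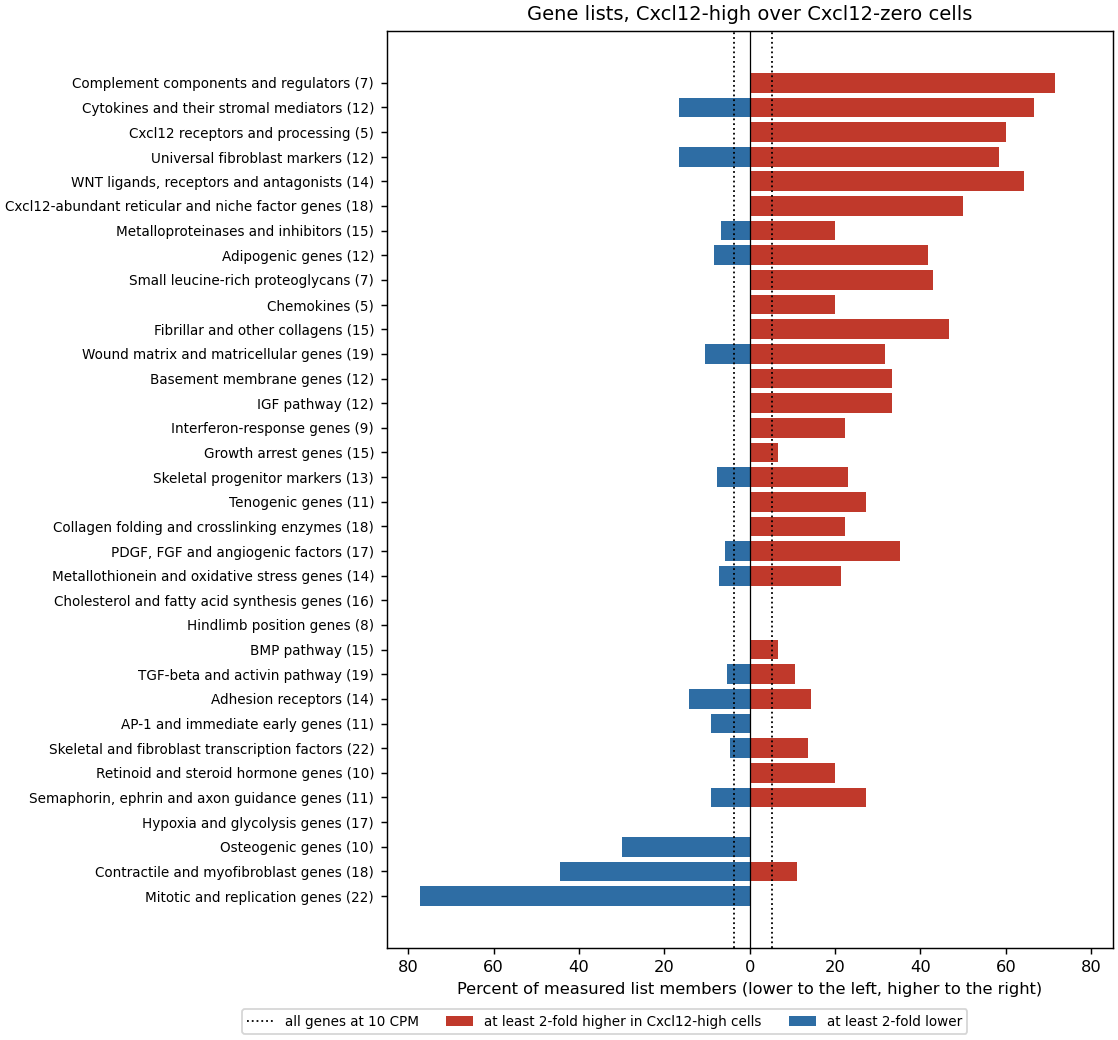
Bars give, for each gene list with at least 5 genes measured at 10 CPM (number in brackets), the percentage at least 2-fold higher in Cxcl12-high cells to the right and at least 2-fold lower to the left of 0. Dotted lines mark 5.12% and 3.57%, the same shares over all 7676 genes; complement, WNT and cytokine lists reach farthest to the right and the mitotic and contractile lists farthest to the left.

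Apart from macrophage and osteoclast genes, genes of other cell types were at low levels in both classes. The macrophage list summed to 473 CPM in Cxcl12-high and 423 CPM in Cxcl12-zero cells with 0 of 5 measured genes past 2-fold. C1q transcripts had a median of 0.675 and 0.657 UMIs per 10000, but the rule itself kept them under 3 in both classes. Lymphoid genes summed to 0.352 and 0.109 CPM, endothelial genes to 20.8 and 12.5 CPM, Schwann cell genes to 15.5 and 16.0 CPM, muscle genes to 0.352 and 8.63 CPM, neutrophil genes to 16.5 and 42.8 CPM, and erythroid genes to 0 and 0.0546 CPM. At 0 in Cxcl12-high cells were 7 of 8 lymphoid and mast cell genes, 7 of 8 muscle genes, 6 of 6 erythroid genes, 4 of 10 endothelial genes, 3 of 8 Schwann cell genes, 2 of 6 neutrophil genes, 1 of 8 osteoclast genes and 0 of 10 macrophage genes. A UMI of Ptprc, the surface protein of all leukocytes, was found in 3 Cxcl12-high and 26 Cxcl12-zero cells, whereas 144 and 636 cells had such a UMI or at least 3 UMIs of the macrophage list, whose part in the results was not tested. Osteoclast genes summed to 138 and 39.8 CPM, with 2 of 3 measured genes higher. Their UMIs lay in very few cells: 3 Cxcl12-high cells had 79, 41 and 40 Acp5 UMIs together with 51, 37 and 34 Mmp9 UMIs, and no other Cxcl12-high cell had more than 5 Acp5 UMIs. Of those 3 cells 1 was among the highest doublet scores, and without them and the 4 such Cxcl12-zero cells 113 genes were higher and 91 lower.

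Cxcl12 levels went with a set of genes across all lineage cells. Over 2225 cells and 2374 genes, the highest Pearson correlations with Cxcl12 were those of Sned1 (0.523), Gas6 (0.481), Sod3 (0.477), Gas1 (0.464), Nnmt (0.435), Emb (0.431), Col3a1 (0.427), Efemp2 (0.424), Il6st (0.398) and Wisp2 (0.392). The lowest were those of Lgals1 (-0.418) and Acta2 (-0.402). The cells share 1 library and differ in depth, so the values are descriptions. Of these genes, Nnmt, an enzyme that methylates nicotinamide, had 240 CPM in Cxcl12-high cells and 83.1 CPM in Cxcl12-zero cells, Emb, a partner of lactate transporters, 414 and 116 CPM, and the matricellular Wisp2 872 and 326 CPM. Efemp2, which organises elastic fibres, had 683 and 336 CPM, a ratio of 2.03 that was 1.86 among non-cycling cells.

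The 148 cells were not of 1 kind. When all lineage cells were clustered without the genes of the rule, 69 of the 148 (46.6%) fell into a cluster of 282 cells. It was led by Hp, Sfrp1 and Serpina3n and held 18 Cxcl12-zero cells (2.63%). It also held 152 Cxcl12-low cells and 43 Cxcl12-high cells above the Ly6 limit, so the 69 cells were 24.5% of it. A further 29 of the 148 (19.6%) fell into a cluster of 149 cells led by Car9, Ndufa4l2 and Il33, with 15 Cxcl12-zero cells (2.19%). Those 29 cells were 19.5% of that cluster, which also held 100 Cxcl12-low cells and 5 Cxcl12-high cells above the Ly6 limit. The other 50 of the 148 were spread over the other clusters, with 4 in the largest, mitotic one, which held 134 Cxcl12-zero cells. Leading genes of a cluster define it and are no finding.

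**Figure D5:**
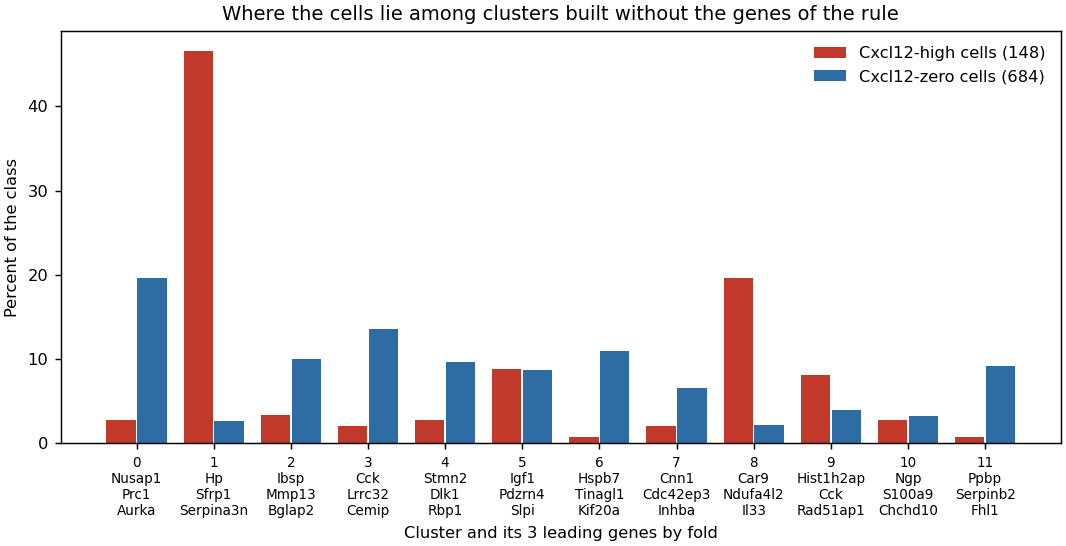
Bars give the percentage of the 148 Cxcl12-high cells and of the 684 Cxcl12-zero cells in each of 12 clusters of lineage cells, built without EGFP, Cxcl12, Ly6a, Ly6c1 and C1q genes, with the 3 leading genes of each cluster under its number. The clusters led by Hp and by Car9 hold 46.6% and 19.6% of the Cxcl12-high cells, against 2.63% and 2.19% of the Cxcl12-zero cells.

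The Cxcl12-high cells of these clusters differed from each other in many genes, which are given as a description, since the clusters were built from the same measurements. Cxcl12 had 1259 CPM in the 69 cells of the Hp cluster, 891 CPM in the 29 cells of the Car9 cluster and 787 CPM in the other 50. Hp had 205, 44.0 and 56.6 CPM in the same order, and Sfrp1 201, 12.8 and 67.8 CPM. The matrix genes Comp, Dcn and Lum were highest in the Car9 cluster, with Comp at 157, 580 and 82.6 CPM, Dcn at 373, 912 and 189 CPM and Lum at 75.3, 279 and 56.6 CPM, whereas Col14a1 had 42.6, 23.8 and 17.6 CPM. Scx, the tendon factor, was at 2.46, 51.4 and 13 CPM, and Postn, the periosteal matrix protein, at 132, 1.83 and 48.3 CPM. Ebf1 had 522, 180 and 346 CPM, Cebpa 44.2, 3.67 and 15.8 CPM, and Igfbp4 939, 437 and 788 CPM, so these were lowest in the Car9 cluster. Gas6, with 1050, 840 and 491 CPM, and Kitl, with 32.8, 44.0 and 27.9 CPM, were present in every one of them. Mitotic genes summed to 167, 237 and 1183 CPM and Acta2 to 454, 389 and 1298 CPM, both highest in the cells outside these clusters.

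Within the Hp cluster alone, 69 Cxcl12-high cells stood against 18 Cxcl12-zero cells, and 55 genes were higher and 63 lower. Hp had a ratio of 3.25 there, Sfrp1 2.92, Gas6 2.11 and Col3a1 2.29, while Comp had 1.38, Ebf1 1.28, Ebf3 1.09, Sox9 0.868 and Vcam1 0.662. Of 108 genes followed there, 17 turned in direction and 45 lost a 2-fold difference. These counts carry no interval, and some of the genes rest on few UMIs there, such as Cavin2 with 13 in the 69 Cxcl12-high cells. Of the 15 leading genes 11 stayed at least 2-fold higher in this comparison, and of the 15 lowest 1 stayed at least 2-fold lower, Acta2 at 0.40.

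Few genes separated the 148 cells from the 60 Cxcl12-high cells above the Ly6 limit. Of 2604 genes, 24 (0.922%) were 2-fold or more higher in the Ly6-low and 6 (0.23%) in the Ly6-high cells. Hp had 118 CPM in Ly6-low and 129 CPM in Ly6-high Cxcl12-high cells, Dcn 407 and 362 CPM, Col3a1 1489 and 1361 CPM, Sned1 377 and 504 CPM, and Kitl 33.1 and 33.5 CPM, so these genes were within 1.5-fold in both, while Gas6 had 798 and 506 CPM. Igf1, the insulin-like growth factor, had 142 CPM in Ly6-low and 31.7 CPM in Ly6-high Cxcl12-high cells, a ratio of 4.49, and Thbs1, an activator of latent TGF-beta, 305 and 67.8 CPM, also 4.49. Sfrp2 had 409 and 141 CPM, a ratio of 2.90, and the proteoglycan Fmod a ratio of 3.04. Igfbp4 had 786 and 363 CPM, and Cxcl14 197 and 96.8 CPM. On the other side Sncg, a synuclein, had 68.2 and 195 CPM, a ratio of 0.35, and the gap junction gene Gjb5 0.38. The genes named for this last comparison, other than Igfbp4 and Cxcl14, were chosen after their values were seen.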

How the data were processed

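The deposited files hold whole-number UMI counts per gene and barcode, without normalization by the authors, for 2 libraries (day 3 and uninjured). The submitters' processing notes name Cell Ranger, Seurat 4.0.1 and mm10, and software version 3.1.0 stands in the matrix header. Cell calling is not given in these sources. The molecule is labelled genomic DNA, but the values are counts of transcripts. Gene positions are those of GENCODE M21 on GRCm38 (mm10), where 31011 of 31055 features were found.

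Each gene's UMIs were added up within a class and divided by the class total (CPM). Ratios have 95% exact conditional binomial intervals, levels exact Poisson intervals and shares of cells exact Clopper-Pearson intervals, all for counting error only. Genes with both classes at 3 UMIs or fewer got no ratio. A difference was called at 2-fold among genes with at least 50 CPM in the higher class, or 10 CPM for lists. Named were the 15 highest and 15 lowest ratios, the 10 genes most correlated with Cxcl12 (with the lowest), and list genes, of which a few are not reported here. The members and lists were chosen with earlier results of these data known. Shares of cells with a UMI were taken after thinning each cell to 3000 UMIs, which left out 4 Cxcl12-zero cells. Clusters came from scanpy 1.11.5 with leidenalg 0.10.2. Doublets were scored with Scrublet, whose automatic threshold marked 0 cells, so the 157 highest scores were removed as an alternative only. TMM factors came from edgeR 4.0.16, figures from matplotlib 3.10.9, and all else from pandas 2.3.3, scipy 1.17.1 and numpy 2.4.6 under Python 3.11.15. The scripts were tested on simulated data.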

Additional observations from a re-analysis of the deposited data

How the results depend on the processing

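The cell number depended on the limits: 51 at 10 and 243 at 3 Cxcl12 UMIs per 10000, 118 at a Ly6 limit of 10, 208 without one, and 124 at 10 EGFP UMIs and 10 per 10000. At 10 Cxcl12 UMIs per 10000, 141 genes were lower; without cycling cells 36, against all other lineage cells 57, and in thinned cells 137. In the cluster with most of the cells 55 genes were higher. With a minimum of 10 CPM 393 were higher and 274 lower, and with none 1891 and 795. Leaving out cells with a Ptprc UMI or 3 macrophage-list UMIs left 4 Cxcl12-high and 48 Cxcl12-zero cells, with 644 and 372 genes, so no gene is given for it. The other counts were within 1.5 times those reported. TMM factors gave 91 higher and 107 lower genes, and cells of 10000 to 40000 UMIs 87 and 64. Of 114 genes followed, 9 turned in direction without cycling cells, 18 lost and 7 gained a 2-fold difference, and 56 moved by over 1.5 times. In the cluster with most of the cells these numbers were 17, 45, 8 and 77 of 108 genes, and the other alternatives turned at most 4, lost at most 6, gained at most 9 and moved at most 22. Among log2 ratios past 2-fold the following changed sign, and the cause was not tested. At 10 Cxcl12 UMIs per 10000, Acp5 had -0.557, Mmp9 -0.632 and the osteoclast-list median -0.557, and without the cells of 10 or more Acp5 UMIs Mmp9 and that median had -0.314. Without cycling cells, which were themselves left out on mitotic UMIs, Tpx2 had 0.67, Ccnb1 1.06 and Aurkb 0.255. In the cluster with most of the cells Cavin2 had 1.83, Rrm2 0.585, Cdc20 0.125, Tm4sf1 0.466, Emb -0.015, Mmp9 -1.88, Ctsk -0.113, Il1r1 -0.094 and Pappa -0.563. That comparison had only 18 Cxcl12-zero cells. In its 69 Cxcl12-high cells Cavin2 had 13 UMIs, Rrm2 11, Cdc20 12 and Mmp9 4, so counting error is large for these genes. The other genes named had 72 or more UMIs in those 69 cells. The neutrophil-list median, over 2 genes, had 0.763 in the depth window, 0.544 at the higher EGFP limit, 0.69 without cells with a Ptprc UMI and 0.833 in that cluster. The alternatives on Acp5, on Ptprc alone, on all other lineage cells and on 1 cluster were chosen after seeing the data. No paired analysis was possible because each group has 1 library.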
